A study of Capra hircus with 6 samples.

Results

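Heat-shock chaperones and their co-chaperones were examined in whole-ovary RNA from 6 goats (Capra hircus), 3 Tibetan goats and 3 Jintang black goats. The members were a fixed list of 48 genes, and 46 of them were among the 17504 genes of the deposited tables. HSPB1 and HSPB7 were not analysed here. The list was drawn up after 2 of its genes, HSPA6 and HSP70.1, had been seen to differ between these breeds in these same libraries. The breed differences of the members are therefore given as a description, with no test. The list was named for cytosolic chaperones, but 4 of its measured members, HSPA9, TRAP1, HSPD1 and HSPE1, encode chaperones of mitochondria.

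Chaperones bind unfolded stretches of other proteins and let them fold or keep them from clumping. HSP70 proteins do this in cycles of ATP binding, J-domain proteins deliver their clients, and exchange factors such as the BAG proteins release them. HSP90 finishes the folding of steroid receptors and kinases with its own set of co-chaperones, which in the ovary serves the progesterone, oestrogen and glucocorticoid receptors. Some chaperone genes are transcribed at all times, whereas others are switched on within minutes of heat, low oxygen or damaged protein by the heat-shock factor HSF1. By that textbook division 18 of the measured members were counted as inducible and 28 as constitutive.

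Each group was 1 breed, with 3 animals that each gave 1 library of total ovarian RNA taken in the follicular phase. By the labels the Jintang breed is prolific and the Tibetan breed is not, and the comparison asked which ovarian transcripts differ between them. The labels do not give age or season, nor how the ovaries were collected and kept before extraction. Tissue markers fitted the label in part: 12 of 12 granulosa cell genes and 7 of 7 measured theca cell genes reached 1 FPKM in at least 3 libraries, whereas of 11 measured oocyte genes only 5 did. Luteal cell markers summed to 6455 FPKM in Jintang 1 and 20140 FPKM in Jintang 2. The sum was 535 FPKM in Jintang 3 and 377 to 2738 FPKM in the Tibetan goats. TIMP1 alone gave 5304 FPKM of the sum in Jintang 1, 9215 FPKM in Jintang 2 and 1298 FPKM in Tibetan 3. In the other libraries TIMP1 was between 253 and 371 FPKM. STAR, CYP11A1 and LHCGR stood on both the luteal and the theca cell list, so these lists are not separate. Whether the ovaries differed in stage of the cycle or in luteal content was not tested. Levels are in FPKM, fragment counts corrected for transcript length and for the number of fragments mapped in the library. The FPKM of a library summed to between 602255 and 682801, and absolute depth is unknown. The most frequent ratio of low values between Tibetan 1 and each other library put the relative depths between 0.927 and 1.023. Only a limited range of ratios was searched, so a large difference in depth would not have been seen. The members held between 0.533% (Jintang 1) and 1.265% (Tibetan 3) of the FPKM of a library.

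Several stress-inducible chaperone genes had lower levels in Jintang than in Tibetan ovaries. HSPA6, HSP70.1, the J-domain protein gene DNAJB1, the small heat-shock protein gene HSPB8 and the exchange factor gene BAG3 were lower in each of the 3 Jintang ovaries than in any Tibetan ovary, with breed means 1.79 to 5.60 times as high in Tibetan goats. These were 5 of the 18 inducible members, beside 6.70% of all genes tested that were lower in Jintang without overlap. The other inducible members overlapped. HSPA6 and HSP70.1 had chosen the list, and BAG3 overlapped with median-ratio or TPM scaling. The constitutive HSP70 and HSP90 genes, HSPA8 and HSP90AB1, overlapped between the breeds, as did the heat-shock factor genes HSF1 and HSF2. The constitutive DNAJB6 and PTGES3 were also lower in every Jintang ovary than in any Tibetan ovary, though DNAJB6 overlapped with median-ratio scaling. A single constitutive member, HSPB6, was higher in every Jintang ovary. The mitochondrial chaperones overlapped between the breeds and were highest in Jintang 2.

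**Figure D1:**
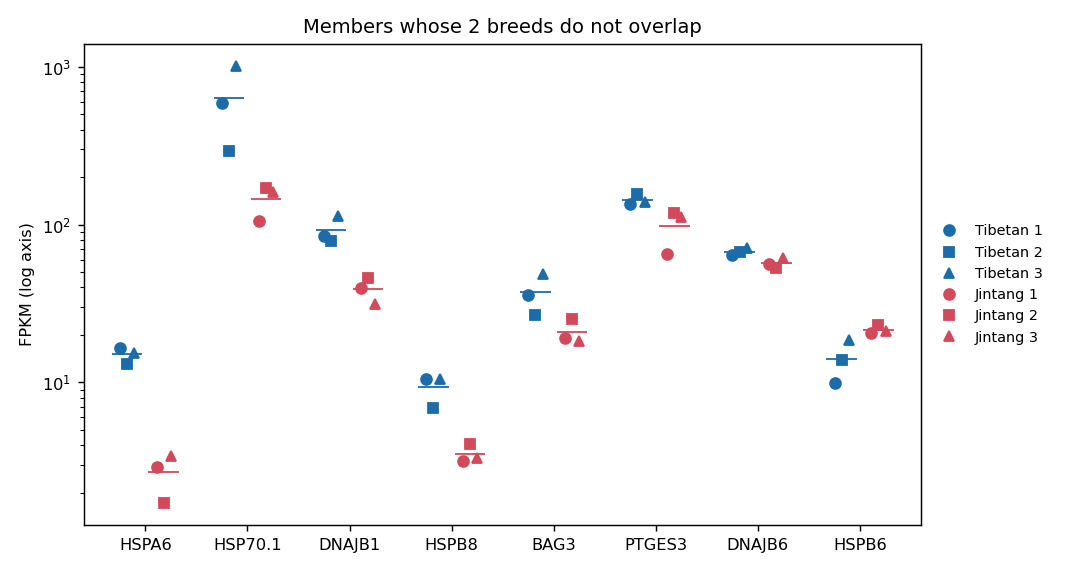
FPKM on a log axis of the 8 members whose 3 Tibetan (blue) and 3 Jintang (red) libraries did not overlap, with 1 symbol per goat and a line at the mean of each breed. The Jintang points lie below the Tibetan points in 7 genes, and above them in HSPB6.

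In the fit across all genes (limma on log2(FPKM + 1), Benjamini-Hochberg adjustment, threshold 0.05), 0 of the 46 members were called, beside 0% of the 13067 genes tested. At an unadjusted p under 0.05 there were 7 members, all lower in Jintang, beside 6.17% of all genes (3.35% lower and 2.82% higher, or 806 genes, 368 higher and 438 lower in Jintang, a split that became 456 and 308 with median-ratio scaling). All 46 members passed the filter of 1 FPKM in at least 3 of the 6 libraries. The breeds did not overlap in 8 members, beside 9.90% of all genes. Of these, 7 were lower in Jintang, beside 6.70% of all genes, and 1 was higher, beside 3.20%. Because the contrast was used to choose the list, these counts describe the members and support no statement about them. Each difference given is the Jintang mean minus the Tibetan mean of log2(FPKM + 1), with the SE of the fit, and this scale understates the change of genes with low values. The median difference of all genes was -0.10, and median-ratio scaling moved it to 0.02. In whole-ovary RNA, fewer cells of a type and less RNA per cell cannot be told apart.

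Among the HSP70 genes, the largest differences were those that had chosen the list. HSPA6 (GeneID 102185412), a strictly stress-induced HSP70 that is nearly silent in unstressed human cells, stood at 16.6, 13.1 and 15.4 FPKM in the Tibetan goats (animals 1, 2 and 3 in this order throughout), against 2.90, 1.72 and 3.44 FPKM in the Jintang goats. The Tibetan values lay close together, and the lowest of them was well above the highest Jintang value. The means were 15.0 ± 1.79 and 2.69 ± 0.880 FPKM (SD, n = 3), a difference of -2.14 (SE 0.29). HSP70.1 (GeneID 100860849), the main heat-inducible HSP70 of goat, stood at 587, 294 and 1013 FPKM, against 105, 171 and 160 FPKM in the Jintang goats (difference -1.97, SE 0.47). Here the Tibetan goats differed widely among themselves, with Tibetan 3 highest, while the Jintang ovaries stayed within a narrow band. HSP70.1 was an abundant transcript in both breeds, its mean level over the 6 libraries being above that of 98.4% of the genes tested.

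The other HSP70 genes overlapped between the breeds. HSPA8 (GeneID 102182240), the constitutive HSP70 that handles most routine folding and strips clathrin from vesicles, stood at 526, 842 and 1492 FPKM in the Tibetan goats against 485, 980 and 631 FPKM in the Jintang goats (difference -0.38, SE 0.48). Its highest value was in Tibetan 3, as for HSP70.1, and without Tibetan 3 its difference was 0.01. HSPA2, best known as the HSP70 of sperm development, stood at 33.6, 22.7 and 38.2 FPKM against 15.2, 24.8 and 22.9 FPKM (difference -0.56, SE 0.31). HSPA1L, another HSP70 with its main expression in testis, had the lowest mean of the family over the 6 ovaries, between 1.88 and 6.37 FPKM, though HSPA6 was lower than HSPA1L in Jintang 2 and Jintang 3. In the RefSeq annotation of assembly ARS1.2 the HSPA1L gene overlaps HSP70.1, and HSP70 coding sequences are close copies of each other. Reads can therefore be shared between these genes, and the level of each is uncertain, above all that of HSPA1L, which lay far below HSP70.1. HSPA9, the HSP70 of mitochondria, is described with the other mitochondrial members.

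HSP110 proteins are large relatives of HSP70 that act as its exchange factors. HSPH1, the inducible HSP110, stood at 47.5, 39.2 and 78.7 FPKM in the Tibetan goats against 22.4, 41.6 and 18.1 FPKM in the Jintang goats (difference -1.01, SE 0.39). Jintang 2 lay above Tibetan 2, so the breeds overlapped, and the other Jintang values lay below all Tibetan values. HSPA4, its constitutive relative and the most abundant of this group, stood at 47.4, 45.5 and 80.0 FPKM against 26.3, 64.6 and 47.3 FPKM (difference -0.36, SE 0.39). HSPA12A, a distant HSP70 relative, stood at 19.0, 16.0 and 11.9 FPKM against 3.71, 4.84 and 12.6 FPKM (difference -1.18, SE 0.42). The overlap of HSPA12A came from Jintang 3, which lay above Tibetan 3. HSPA4L (0.66 to 4.46 FPKM), HSPA14, which works at the ribosome (15.9 to 27.4 FPKM), and HSPA12B, which is known from endothelium (23.5 to 36.8 FPKM), overlapped, with differences of -0.35, -0.28 and 0.04.

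The cytosolic HSP90 genes were among the most abundant members. HSP90AB1 (GeneID 100861006), the constitutive cytosolic HSP90, had the highest mean of all 46 and stood at 817, 1022 and 847 FPKM in the Tibetan goats against 510.0, 908 and 1020 FPKM in the Jintang goats (difference -0.19, SE 0.39). A single low library, Jintang 1, set the direction, and without it the difference was 0.11. HSP90AA1, the inducible cytosolic HSP90, stood at 793, 618 and 1178 FPKM against 413, 676 and 487 FPKM (difference -0.69, SE 0.39). Jintang 2 lay above Tibetan 2 here too. By level, HSP90AB1, HSPA8 and HSP90AA1 had means of 854, 826 and 694 FPKM over the 6 ovaries, and their ranges overlapped so widely that this order does not exceed the spread between animals.

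Small heat-shock proteins hold unfolded proteins without using ATP and are abundant in muscle. HSPB8, which works with BAG3 in clearing damaged proteins by autophagy, stood at 10.5, 6.93 and 10.5 FPKM in the Tibetan goats against 3.18, 4.07 and 3.31 FPKM in the Jintang goats (difference -1.17, SE 0.28). Every Jintang value lay below every Tibetan one, and HSPB8 had the smallest spread within breeds of the inducible members, an SD of 0.24 on the log2 scale. HSPB6, known from smooth muscle, went the other way, at 9.90, 13.9 and 18.7 FPKM against 20.5, 22.9 and 21.2 FPKM (difference 0.61, SE 0.29). The 3 Jintang values were nearly equal, and Tibetan 3 came within 1.85 FPKM of the lowest of them. CRYAB, the alpha-B crystallin, stood at 55.5, 17.6 and 68.0 FPKM against 66.3, 61.2 and 13.6 FPKM, with the same mean of 47.0 FPKM in both breeds. It was high in 4 ovaries and low in Tibetan 2 and Jintang 3, which gave it the largest spread within breeds of any member (SD 1.14, beside a median of 0.42 over all genes). HSPB2, which lies next to CRYAB in the genome, was lowest in Tibetan 2 (2.20 FPKM) and highest in Tibetan 1 (11.2 FPKM).

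Smooth muscle markers moved with the libraries as well, and are given here because several small heat-shock proteins are muscle products. All 10 listed markers were detected and all 10 had a negative difference, beside 59.0% of all genes. The median was -0.81 (-0.68 with median-ratio scaling), beside -0.67 for the inducible chaperones. All 10 markers overlapped between the breeds, and 0 had an unadjusted limma p under 0.05, beside 6.17% of all genes. Their summed level ran from 4450 to 8708 FPKM in the Tibetan goats, and the Jintang range was 2201 to 8515 FPKM. Tibetan 1 and Jintang 3 were highest and Jintang 2 lowest. HSPB2, and HSPA12A of the HSP70-related group, were also highest in Tibetan 1, and within the Jintang goats highest in Jintang 3. HSPB6 went the other way, lowest in Tibetan 1 (9.90 FPKM) and highest in Jintang 2 (22.9 FPKM). CRYAB was lowest in Jintang 3 (13.6 FPKM), and HSPB8 was highest within the Jintang goats in Jintang 2 (4.07 FPKM). The part of smooth muscle in the levels of the chaperones was not tested.

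J-domain proteins bring clients to HSP70 and start its ATP cycle. All 8 listed genes had a negative difference, with a median of -0.36, also with median-ratio, TPM and quantile scaling, beside 59.0% of all genes. Of 25 further J-domain genes tested that are not members, 15 had a negative and 10 a positive difference, with a median of -0.04, and with median-ratio scaling 10 were negative and 15 positive. DNAJB1 (GeneID 102172345), the inducible partner of HSP70.1 in heat shock, stood at 84.3, 78.7 and 113 FPKM in the Tibetan goats against 39.5, 45.7 and 31.3 FPKM in the Jintang goats (difference -1.22, SE 0.28). Its lowest Tibetan value was 1.72 times its highest Jintang value. DNAJB6, which keeps aggregation-prone proteins soluble, was also apart but by little, at 63.9, 66.8 and 70.8 FPKM against 56.3, 53.1 and 61.7 FPKM (difference -0.23, SE 0.24). DNAJB6 had the smallest spread within breeds of all members, an SD of 0.09 on the log2 scale, but its breeds overlapped with median-ratio scaling. DNAJB4 stood at 11.2, 13.9 and 24.6 FPKM against 12.1, 8.38 and 8.49 FPKM (difference -0.67, SE 0.34), and DNAJA1, an abundant inducible J-domain protein, at 120, 145 and 182 FPKM against 93.4, 145 and 92.1 FPKM (difference -0.44, SE 0.31). Both overlapped through a single Jintang ovary, Jintang 1 in DNAJB4 and Jintang 2 in DNAJA1. DNAJB5 was 15.2 FPKM in Tibetan 3 and between 2.52 and 6.08 FPKM elsewhere. DNAJA2, DNAJA4 and DNAJB2 overlapped, with differences of -0.21, -0.28 and -0.55.

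Among the co-factors of HSP70, BAG3 was the single gene without overlap when values were not rescaled. It is the inducible BAG protein that couples HSP70 to small heat-shock proteins, and it stood at 35.7, 26.7 and 48.9 FPKM in the Tibetan goats against 19.0, 25.2 and 18.2 FPKM in the Jintang goats (difference -0.78, SE 0.30). Tibetan 2 and Jintang 2 were close to each other, and the breeds overlapped in BAG3 once median-ratio or TPM scaling was used. BAG2, which restrains the ubiquitin ligase STUB1, stood at 14.6, 20.8 and 25.2 FPKM against 11.95, 11.8 and 15.1 FPKM (difference -0.58, SE 0.29). Here Jintang 3 lay just above Tibetan 1, but with median-ratio or TPM scaling the breeds did not overlap in BAG2. ST13, also called HIP, which stabilises HSP70 with its client, was the most abundant of the group at 211, 317 and 128 FPKM against 140, 121 and 163 FPKM (difference -0.54, SE 0.37). BAG1 had means of 57.8 ± 7.90 and 58.3 ± 11.6 FPKM (SD, n = 3), and HSPBP1 and STUB1 had differences of -0.10 and -0.12 that turned positive with median-ratio scaling.

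HSP90 co-chaperones were lower in Jintang 1 than in any other library in 6 of 6 genes. PTGES3, the p23 protein that closes HSP90 on steroid receptors, stood at 135, 156 and 140 FPKM in the Tibetan goats against 65.3, 118 and 112 FPKM in the Jintang goats (difference -0.59, SE 0.31), without overlap. FKBP4, also called FKBP52, which supports progesterone receptor activity in the reproductive tract, stood at 203, 130 and 300.5 FPKM against 83.0, 178 and 131 FPKM (difference -0.67, SE 0.41). Tibetan 2 was the lowest Tibetan ovary in FKBP4 and lay below 2 Jintang ovaries. FKBP5, the relative that restrains glucocorticoid receptors and is itself induced by them, stood at 75.9, 96.02 and 61.6 FPKM against 46.02, 114 and 84.2 FPKM, with a difference of -0.01 that turned positive with median-ratio scaling. STIP1, which passes clients from HSP70 to HSP90, ranged from 48.1 to 195 FPKM, AHSA1, the activator of the HSP90 ATPase, from 53.8 to 151 FPKM, and CHORDC1 from 13.8 to 31.4 FPKM, with differences of -0.74, -0.56 and -0.21.

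The transcription factors that drive the inducible genes overlapped between the breeds. HSF1 stood at 25.8, 19.7 and 24.1 FPKM in the Tibetan goats against 19.6, 26.2 and 23.6 FPKM in the Jintang goats, with a difference of -0.01 (SE 0.25) that was positive with median-ratio and quantile scaling. HSF2 stood at 19.0, 19.4 and 11.9 FPKM against 14.2, 9.91 and 14.9 FPKM (difference -0.33, SE 0.30). The highest HSF1 value was 1.33 times the lowest, whereas for HSP70.1 the same ratio was 9.63 and for HSPA6 9.65. HSF1 is controlled mainly after translation, so its transcript level is not a measure of its activity.

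The mitochondrial chaperones followed a single goat. HSPD1, the HSP60 chaperonin of the mitochondrial matrix, stood at 94.8, 141 and 212 FPKM in the Tibetan goats against 82.9, 530.1 and 100.3 FPKM in the Jintang goats (difference 0.22, SE 0.68). Its partner HSPE1 stood at 14.1, 22.0 and 15.0 FPKM against 11.7, 30.7 and 13.6 FPKM. The HSPE1 gene overlaps HSPD1 in the RefSeq annotation, so some reads may be shared between them. HSPA9, which pulls proteins into mitochondria, stood at 62.9, 70.13 and 82.2 FPKM against 51.0, 131 and 63.6 FPKM, and the mitochondrial HSP90 gene TRAP1 at 24.3, 21.2 and 26.8 FPKM against 23.3, 65.8 and 26.5 FPKM. All 4 genes peaked in Jintang 2, and 3 of them were lowest in Jintang 1. Without Jintang 2 the difference of HSPD1 was -0.63. Of 10 listed luteal cell markers 8 were measured, all detected, and all 8 had a positive difference (median 1.97), whereas 59.0% of all genes had a negative one. The breeds overlapped in all 8. Their sum was highest in the same library, at 20140 FPKM in Jintang 2 and 6455 FPKM in Jintang 1. It was 535 FPKM in Jintang 3 and 377 to 2738 FPKM in the Tibetan ovaries. Most of the sum in Jintang 1 was TIMP1 (5304 FPKM), which also gave 9215 FPKM of the sum in Jintang 2. Not every marker peaked in Jintang 2: PTGFR and PRLR were highest in Jintang 1 (274 and 53.4 FPKM) and LHCGR in Tibetan 3 (53.4 FPKM). The part of luteal cells in the mitochondrial chaperone levels was not tested.

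**Figure D2:**
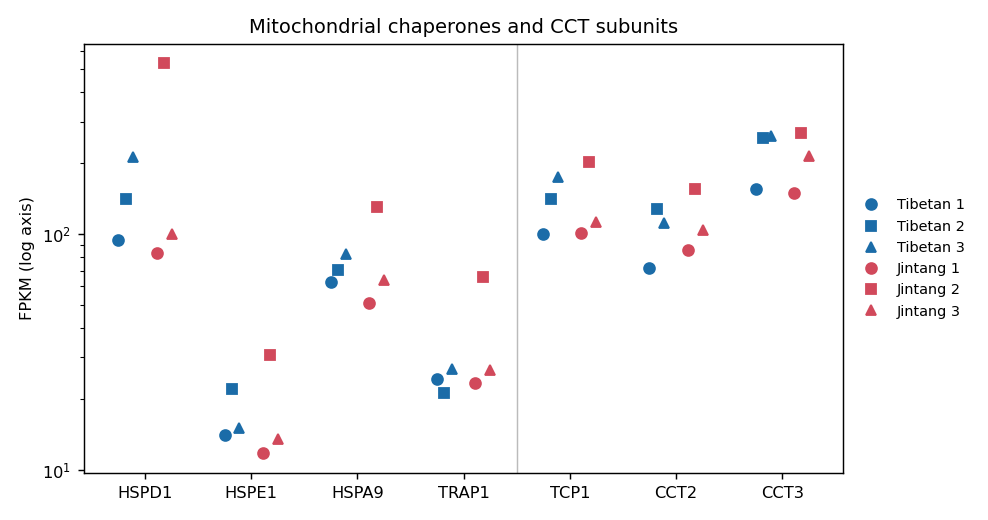
FPKM on a log axis of the 4 mitochondrial chaperones and the 3 CCT subunits on the list, with 1 symbol per goat (Tibetan blue, Jintang red). The red square, Jintang 2, is the highest point of all 7 genes.

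CCT, the cytosolic chaperonin ring that folds actin and tubulin, also peaked in Jintang 2. CCT3 stood at 156, 257 and 261 FPKM in the Tibetan goats against 149, 269 and 214 FPKM in the Jintang goats (difference -0.09, SE 0.35, positive with median-ratio scaling). CCT2 ranged from 71.5 to 155 FPKM and TCP1 from 101 to 202 FPKM. Tibetan 1 and Jintang 1 were the lowest libraries in all 3 subunits, and the breeds overlapped widely.

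Counted by class, 16 of 18 inducible members had a negative difference (median -0.67), and 22 of 28 constitutive members did (median -0.20), beside 59.0% of all genes tested (median -0.10). With median-ratio scaling the counts were 15 and 16 and the medians -0.55 and -0.08, beside a median of 0.02 for all genes. The exceptions among the inducible members were the mitochondrial HSPD1 and HSPE1. Without HSPA6 and HSP70.1, 14 of 16 inducible members had a negative difference, with a median of -0.61. The breeds did not overlap in 5 of 18 inducible members, all lower in Jintang, and in 3 of 28 constitutive members, DNAJB6, PTGES3 and HSPB6, beside 9.90% of all genes. The difference between the classes was not tested.

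**Figure D3:**
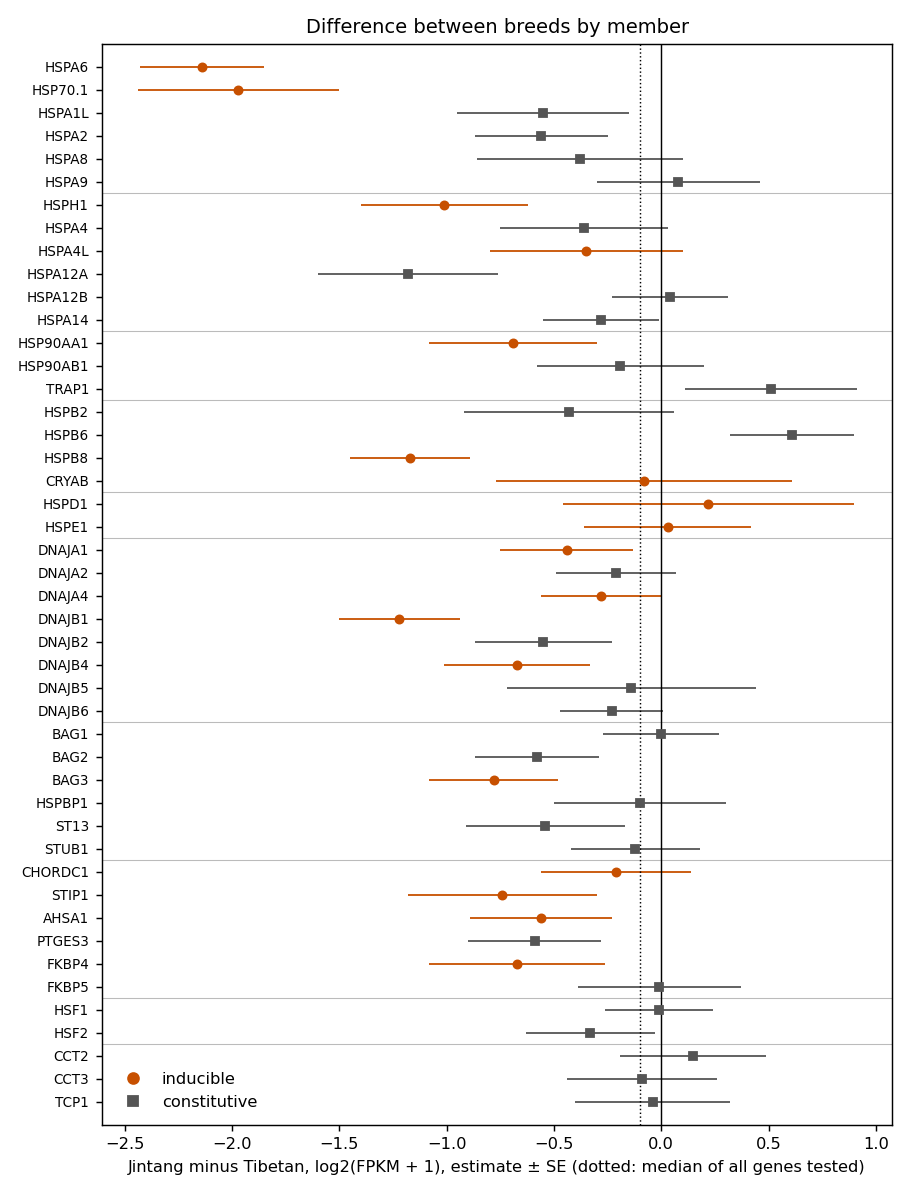
Jintang minus Tibetan difference of each of the 46 members on the log2(FPKM + 1) scale, with the SE of the limma fit, grouped by role (inducible members as orange circles, constitutive members as grey squares). The dotted line is the median of all genes tested, -0.10, and the largest negative values are those of HSPA6 (-2.14), HSP70.1 (-1.97) and DNAJB1 (-1.22).

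Library by library, the members were most often highest in Tibetan 3 and most often lowest in Jintang 1. The share of all genes highest or lowest in each library is not given here, so these counts only describe the members. Tibetan 3 had the highest value of 22 of the 46 members and of 13 of the 18 inducible ones, and Jintang 1 the lowest value of 24 and of 10. Jintang 2 was highest in 13 members, among them all mitochondrial chaperones and CCT subunits, and Jintang 3 and Jintang 1 were highest in 0. The mean log2 level of the inducible members was 5.62, 5.39 and 6.15 in Tibetan 1, 2 and 3 and 4.78, 5.43 and 4.83 in Jintang 1, 2 and 3. Jintang 2 therefore lay above Tibetan 2, and the class as a whole overlapped between the breeds. The constitutive members averaged 5.50, 5.57 and 5.81 against 5.10, 5.62 and 5.50. Other cell types marked the same libraries. Skeletal muscle genes (5 of 8 listed measured, all detected) summed to 388 FPKM in Tibetan 3 and to 13.1 to 22.8 FPKM in the other 5 libraries. Macrophage genes (10 of 11 listed measured, all detected) summed to 1243 FPKM in Jintang 1 and to 80.9 to 299 FPKM elsewhere. All 10 macrophage genes had a positive difference (median 1.23), whereas 59.0% of all genes had a negative one. The part of these cells in the chaperone levels was not tested. Without Tibetan 3 the median difference of the inducible members was -0.37 and without Jintang 1 it was -0.45. Without Jintang 1 the constitutive median was -0.02.

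**Figure D4:**
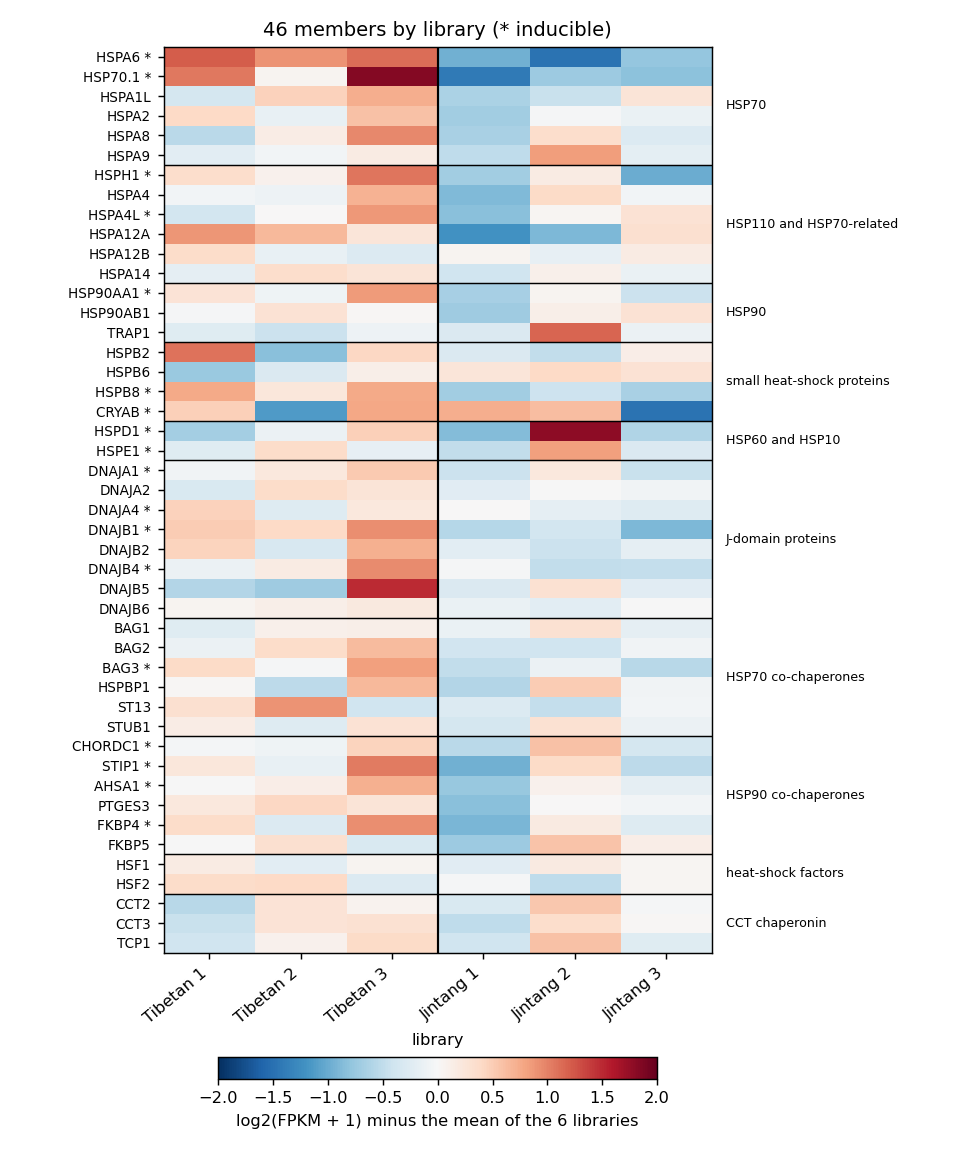
Level of each of the 46 measured members in each library, as log2(FPKM + 1) minus the mean of the 6 libraries, ordered by role, with Tibetan goats left of the black line and an asterisk on inducible members. Tibetan 3 is the reddest column and Jintang 1 the bluest, and the red cells of Jintang 2 include HSPD1, HSPE1, HSPA9 and TRAP1.

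Ratios of an inducible member to a constitutive relative in the same library are free of any scaling by 1 factor per library, though not of quantile normalization. Of 11 such pairs, chosen after the values had been seen, 5 did not overlap between the breeds and 6 did. The share over all pairs of genes was not computed, so this count is a description only. The 5 include HSPA6 and HSP70.1, which had chosen the list, both over HSPA8. HSPA8 and DNAJB1 recur among the 11, so the pairs are not separate observations. HSP70.1 was at 1.12, 0.349 and 0.679 of the level of HSPA8 in Tibetan 1, 2 and 3 and at 0.217, 0.175 and 0.253 of it in Jintang 1, 2 and 3. HSP70.1 transcripts thus equalled or exceeded those of HSPA8 in a single goat, Tibetan 1, and were at most 0.253 of them in the Jintang goats. DNAJB1 was at 1.32, 1.18 and 1.60 of the level of DNAJB6 in Tibetan and at 0.702, 0.860 and 0.508 of it in Jintang ovaries. BAG3 was at 0.732, 0.431 and 0.781 of BAG1 against 0.362, 0.352 and 0.358, a nearly constant ratio in the Jintang goats. These 3 pairs did not overlap between the breeds, nor did HSPA6 over HSPA8, and HSPH1 over HSPA4 was apart by a narrow margin (0.862 in Tibetan 2 and 0.852 in Jintang 1). HSP90AA1 over HSP90AB1 did overlap, at 0.970, 0.604 and 1.39 against 0.809, 0.745 and 0.477. DNAJB1 overlapped when set against HSPA8 (0.0760 in Tibetan 3 and 0.0814 in Jintang 1), and so did DNAJA1 over DNAJA2, STIP1 over ST13, FKBP4 over FKBP5 and CRYAB over HSPB2. HSPA6 was at most 0.0445 of HSP70.1 in any library (Tibetan 2), and that ratio overlapped between the breeds as well.

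**Figure D5:**
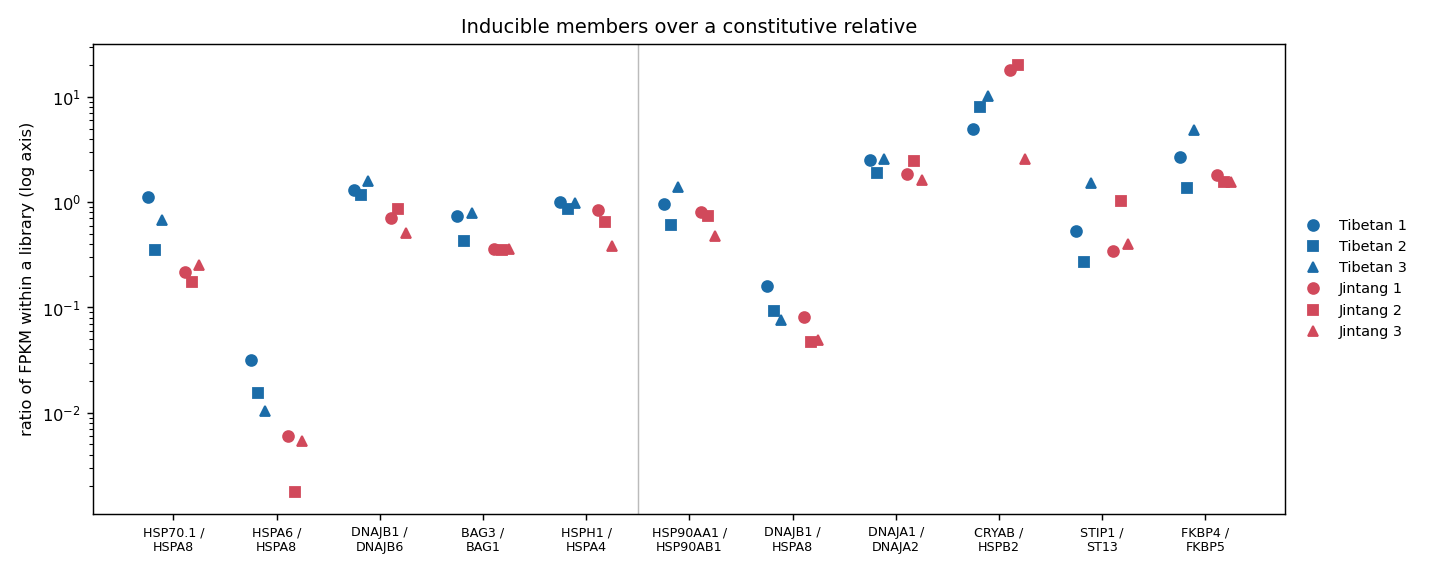
Ratio of the FPKM of an inducible member to that of a constitutive relative within each library, on a log axis, for 11 pairs with 1 symbol per goat (Tibetan blue, Jintang red). The colours are apart in the 5 pairs left of the grey line and mixed in the 6 pairs right of it.

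Chaperone genes outside the list had a median close to that of all genes. Of 72 further genes (mostly other J-domain proteins, BAG proteins, CCT and prefoldin subunits and HSP90 co-chaperones), 71 were measured and 69 tested. Limma called 0 of them in either direction, beside 0% of all genes, with 1 at an unadjusted p under 0.05, beside 6.17%. Their median difference was -0.11, beside -0.10 for all genes. A negative difference was seen in 48 of 69, or 69.6%, beside 59.0% of all genes (34 of 69 with median-ratio scaling). The 3 with the smallest p were UNC45B, HSPA13 and DNAJC17. UNC45B, the HSP90 co-chaperone that folds muscle myosin, stood at 2.29, 1.63 and 4.17 FPKM in the Tibetan goats against 0.820, 0.350 and 0.710 FPKM in the Jintang goats without overlap. HSPA13, a microsomal HSP70, went the other way and just overlapped, at 9.60, 13.9 and 19.2 FPKM against 22.8, 30.4 and 18.8 FPKM. DNAJC17 stood at 37.9, 35.5 and 29.6 FPKM against 14.2, 20.7 and 30.3 FPKM. The breeds did not overlap in 4 of the 69 genes, beside 9.90% of all genes.

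Immediate-early genes, which also respond within minutes to handling and injury of tissue, are given beside the inducible chaperones. Of 18 measured, 13 had a negative difference (median -0.46; 10 with median-ratio scaling), beside 59.0% of all genes. Of these 18 limma called 0, with 5 at an unadjusted p under 0.05, beside 6.17% of all genes. Their mean log2 level was 4.95, 5.22 and 4.86 in Tibetan 1, 2 and 3 and 5.43, 4.32 and 4.53 in Jintang 1, 2 and 3. By this mean Jintang 1, the lowest library for inducible chaperones, was the highest for immediate-early genes. By summed level Tibetan 2 was the highest, at 1222 FPKM against 1088 FPKM in Jintang 1. JUN was the single immediate-early gene without overlap, at 80.7, 92.3 and 109 FPKM in the Tibetan goats against 62.4, 29.1 and 61.6 FPKM in the Jintang goats. Of 8 measured glucocorticoid-responsive genes, which include the member FKBP5, 7 had a negative difference (median -0.23; 4 with median-ratio scaling), and 3 did not overlap between the breeds, beside 9.90% of all genes: PER1 and KLF9 were lower and SGK1 higher in Jintang. The part of handling or of stress hormones in the chaperone levels was not tested.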

How the data were processed

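RNA from the ovary of each goat was extracted with TRIzol and made into a cDNA library (NEBNext kit), per the labels' protocols. The authors deposited 1 FPKM table per goat. The file name of Tibetan 2 carries an extra letter whose meaning no source gives; its sample was taken from the deposit record. RSEM 1.2.0, Bowtie2 2.1.0 and TopHat2 2.0.10 are named in the submitters' processing notes, with no role for each. The genome build was not given in the sources used here, and coordinates are left out. FPKM is relative within a library, and values were not rescaled. Symbols came from the RefSeq gene table of assembly ARS1.2 (16459 IDs matched by GeneID, 9 by transcript accession), HSPA1L through a synonym. No sequence is shown because none was among the files used here.

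Genes that reached 1 FPKM in 3 or more of the 6 libraries entered a limma fit (limma 3.58.1, R 4.3.3, breed as the only term, intensity trend, pseudocount 1, 2-sided). The procedure was tested on simulated data. Each library is 1 goat, so SD measures the spread between animals. The SE of the fit draws the spread of a gene towards that of all genes at its level. DNAJB6, with an SD of 0.09 within breeds, therefore had an SE of 0.24. The members, classes and lists were chosen with earlier results of these data known. Members named in full are HSPA6, HSP70.1, HSF1, HSF2, the 12 with the smallest p and the most abundant of each role, and of the other pathway genes the 3 with the smallest p. HSP90AA1, TRAP1, HSPA9, HSPE1, DNAJB5, DNAJB6, FKBP5 and the genes named in the immediate-early and glucocorticoid lists were added after their values were seen. Alternatives were other scalings, pseudocounts, filters and fits, the replicate number as a block, and each library left out. Figures used matplotlib 3.10.9 in Python 3.11.15.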

Additional observations from a re-analysis of the deposited data

How the results depend on the processing

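No member was called by limma under any alternative run: median-ratio, TPM or quantile scaling, a pseudocount of 0.1 or 0.01, a filter of 5 FPKM or none, no trend, array weights, the replicate number as a block, or each library left out. Over all genes limma called between 0 and 13 with a library left out, the 13 without Jintang 3. The number of members whose breeds did not overlap ran from 9 to 15 with a library left out, where fewer values have to be apart (14.1% to 33.6% of all genes), and was 7 with median-ratio, 9 with TPM and 10 with quantile scaling (9.52%, 11.1% and 9.65% of all genes). HSPA6, HSP70.1, DNAJB1, HSPB8, PTGES3 and HSPB6 did not overlap under any of these 3 scalings. The inducible median ran from -0.83 to -0.37 and the constitutive median from -0.31 to -0.02 with a library left out, and the narrower inducible list gave -0.72. Signs turned for 7 members with median-ratio scaling, CCT3 (0.04), CRYAB (0.05), HSF1 (0.12), HSPBP1, STUB1, FKBP5 and TCP1, and for HSF1 (0.06) with quantile normalization. With array weights the sign of CRYAB turned (0.10), but not of that member alone. There 16 inducible and 24 constitutive members were negative, beside 16 and 22 in the main fit. With a library left out, the difference ran from -0.34 to 0.13 for CCT3, -0.67 to 0.63 for CRYAB, -0.11 to 0.10 for HSF1, -0.63 to 0.70 for HSPD1, -0.74 to 0.01 for HSPA8 and -0.39 to 0.11 for HSP90AB1. The cause was not tested.

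The replicate numbers name different animals of different breeds. Deviations of same-numbered goats from their breed means correlated at -0.018, -0.211 and -0.47, so the numbers were not taken as pairs. With the replicate block limma called 0 genes, and the medians were -0.67 and -0.20. Overlap of breeds cannot change with the pseudocount, trend, weights or block, so those were not run for it. Depth is unknown, which limits what can be said of the lowest values, those of HSPA4L, HSPA1L and HSPB2 and of HSPA6 in the Jintang goats (1.72 to 3.44 FPKM), on which its difference rests.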
